A study of Danio rerio with 6 samples.

Results

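The unfolded protein response and its chaperones were examined in dsRed-positive cells sorted from zebrafish skeletal tissue, through 34 genes named by symbol. All 34 were present among the 36351 gene rows of the count files, each as 1 row, and all 34 passed the low-count filter that left 20438 genes for testing. The cells came from clcn7-/- mutants and WT siblings at 10 weeks post fertilization, and both genotypes carried a ctsk:dsRed transgene, in which the promoter of the osteoclast protease gene ctsk drives a red fluorescent protein. Each genotype had 3 bulk RNA libraries, and each library combined 5000 sorted cells from each of 2 fish. The product of clcn7 exchanges chloride for protons across the membrane of lysosomes and of the resorbing border of osteoclasts, and the mutant allele is not described in the labels.

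Proteins that enter the endoplasmic reticulum (ER) fold there with the help of chaperones, co-chaperones and enzymes that form disulfide bonds, and proteins that fail to fold are sent back to the cytosol for degradation. When unfolded proteins build up, 3 sensors in the ER membrane start the unfolded protein response: IRE1 splices the mRNA of xbp1, PERK slows translation through eIF2 and favours ATF4, and ATF6 is cut to release a transcription factor. Secretory cells, among them matrix-forming osteoblasts and protease-secreting osteoclasts, rely on this machinery. The roles given below are those known for the mammalian proteins.

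Libraries held 22739782 to 26951306 counts over genes. Levels are CPM, each gene's counts as a rate of the library's total, scaled with TMM factors, and fold changes are clcn7-/- against WT from edgeR, with the SE after the ± sign and p-values adjusted over all tested genes. The clcn7 transcript itself was present in every library, at 34.0, 30.5 and 26.0 CPM in WT replicates 1 to 3 and 39.1, 28.0 and 37.7 CPM in mutant replicates 1 to 3 (log2 fold change 0.21 ± 0.18, edgeR adjusted p = 0.482), so its level does not check the genotype labels. The labels call the cells ctsk-positive osteoclasts. ctsk stood at 1022, 463 and 511 CPM in WT and 1265, 1054 and 1260.4 CPM in mutants, a log2 fold change of 0.84 ± 0.30 that edgeR did not call (adjusted p = 0.102). ctsk was called higher by DESeq2 (log2 fold change 0.85, adjusted p = 0.0277), by limma-voom (1.09, 0.0240) and by edgeR without WT replicate 1 (1.33, 0.00515). Of 12 osteoclast markers edgeR called 2 higher and 1 lower, and 5 higher and 1 lower without WT replicate 1, while DESeq2 and limma-voom each called 4 higher and 1 lower. Their summed level was 1218 to 2700.0 CPM in WT and 2239.8 to 3213 CPM in mutants. Markers of other cells were also present. The summed level of 16 osteoblast markers was 59718 to 86849 CPM in WT and 39641 to 58334 CPM in mutants, and that of 10 keratinocyte markers 41309 to 50375 and 15872 to 26134 CPM. The 10 macrophage markers summed to 915 to 1606 CPM in WT and 2492 to 6580 CPM in mutants, and the 9 neutrophil markers to 164 to 249 and 1481 to 1881 CPM. The 10 erythroid markers summed to 355 to 614 and 1049.7 to 2813 CPM, and the 12 fibroblast markers to 13254 to 14747 and 7536 to 11047 CPM. In such bulk libraries, fewer cells of a type and less RNA per cell cannot be told apart.

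Of the 34 genes, 11 rose in the mutants and 0 fell at an adjusted p under 0.05 (edgeR's quasi-likelihood test with Benjamini-Hochberg adjustment). The 11 were hspa5, hsp90b1, sdf2l1, calr, calr3b, canx, pdia6, herpud1, edem1, derl2 and atf4a. They make up 32.4% of the genes, against 9.91% called higher, 4.83% called lower and 14.7% called in either direction over all tested genes. The 34 genes were chosen with earlier results of these data known. The shares over all tested genes were not matched to the 34 for expression level. At an unadjusted p under 0.05, edgeR gave 16 genes above 0 and 1 below 0, p4hb. The same unadjusted count was not made over all tested genes. DESeq2 and limma-voom each called 12 of the 34 higher and 0 lower. Over all genes DESeq2 called 2720 higher and 1859 lower and limma-voom 2318 and 1323, beside 2025 and 987 by edgeR. The increases of the 11 genes were moderate, from 1.40-fold for canx to 2.97-fold for derl2. On the log2 scale the median change of the 34 genes was 0.34, beside -0.05 for all tested genes. In 16 of the 34 (47.1%) the 3 mutant libraries lay above the 3 WT libraries, which held for 19.5% of all tested genes, and in 2 (5.88%), dnajb9a and p4hb, they lay below, which held for 17.6%. The authors' deposited table gives 12 of the 34 as higher and 0 as lower at an adjusted p under 0.05, and its log2 fold change has the sign found here for all 34. That table was made from the same libraries, so the match in sign is not separate evidence.

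**Figure D1:**
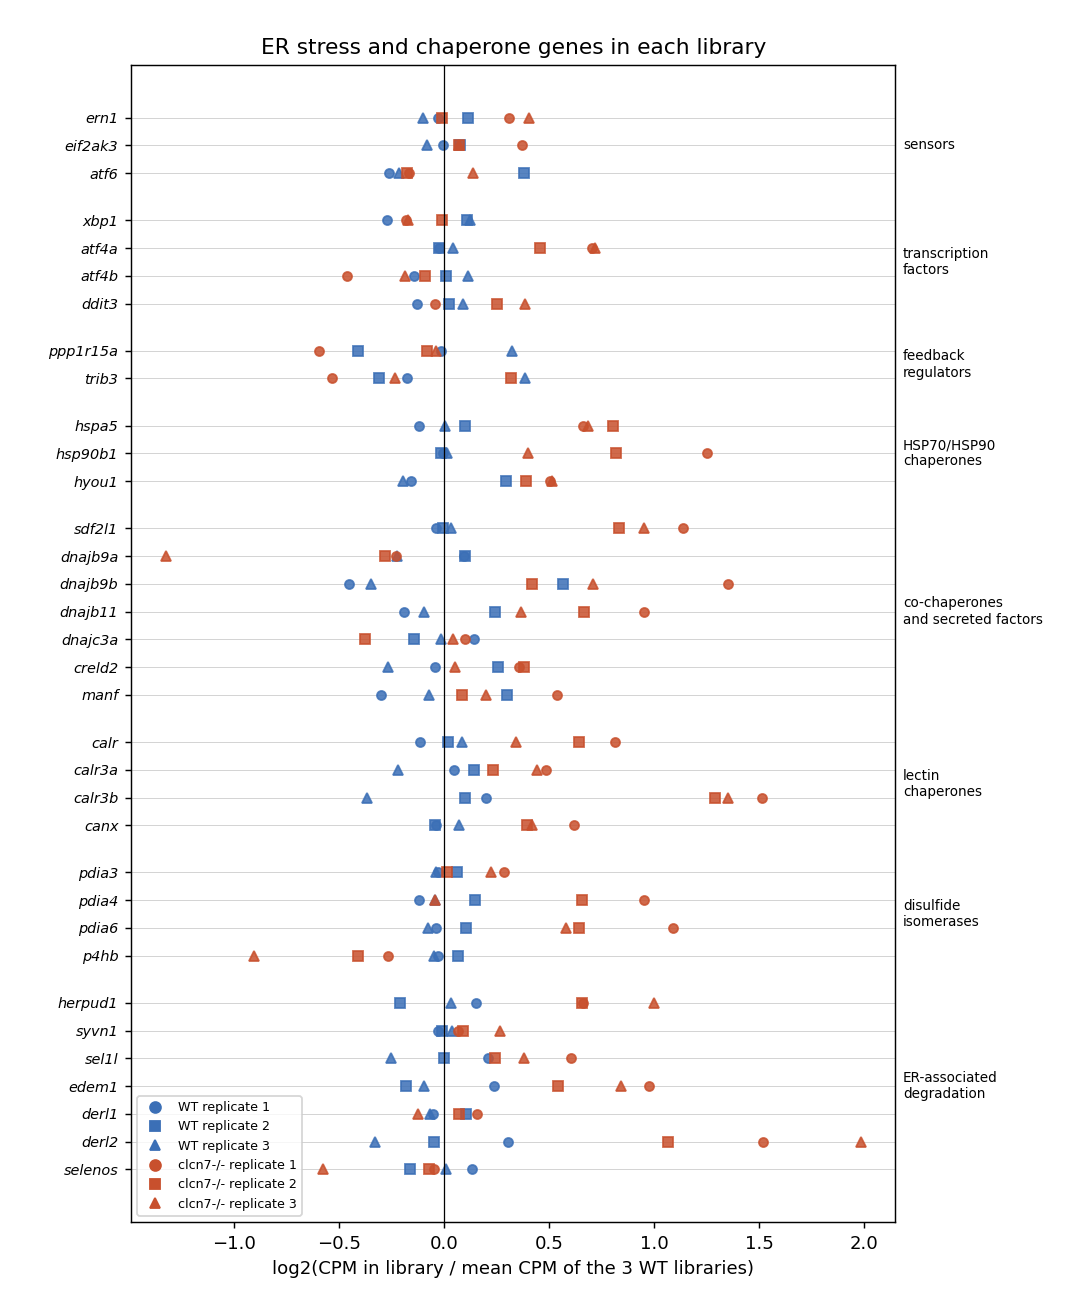
Level of each of the 34 genes in each library, as log2 of its CPM over the mean CPM of the 3 WT libraries (x axis), ordered by role (y axis); blue marks are WT and orange marks clcn7-/-, with 1 shape per replicate number. In hspa5, sdf2l1, calr3b and derl2 the 3 orange marks stand clear of the blue ones, while in the sensors, xbp1, ddit3, ppp1r15a and trib3 they mix.

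Rises were counted mainly among folding and degradation genes. Of the 25 genes for folding and degradation 10 rose, and of the 9 sensors, transcription factors and feedback regulators 1 rose. By edgeR 9.91% of all tested genes were called higher, and 1 of 9 lies near that share. The difference in counts between these groups of genes was not tested. Counts of rises in the role groups below, of 2 to 7 genes each, stand beside the same 9.91%. For mutant libraries all above WT, the share over all tested genes was 19.5%.

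None of the 3 sensor genes was called by edgeR, and none had an unadjusted p under 0.05 or a call by DESeq2 or limma-voom. ern1, which encodes IRE1, measured 15.4, 17.0 and 14.7 CPM in WT and 19.5, 15.6 and 20.8 CPM in mutants (log2 fold change 0.25 ± 0.17, edgeR adjusted p = 0.383). eif2ak3, which encodes PERK, measured 16.9, 18.0 and 16.1 CPM in WT and 22.0, 17.9 and 17.9 CPM in mutants (0.18 ± 0.16, edgeR adjusted p = 0.498). atf6 measured 8.25, 12.9 and 8.55 CPM in WT and 8.82, 8.76 and 10.9 CPM in mutants (-0.06 ± 0.24, edgeR adjusted p = 0.899). In each of the 3 genes the WT and mutant libraries overlapped. Their 95% confidence intervals on the log2 scale ran from -0.15 to 0.64 for ern1, -0.19 to 0.54 for eif2ak3 and -0.62 to 0.50 for atf6, so a doubling of the transcript lay outside each interval. Sensor activity is set by protein modification and was not measured.

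Among the transcription factors downstream of the sensors, atf4a rose and xbp1, atf4b and ddit3 were not called. ATF4 is the factor whose translation PERK favours, and zebrafish have a pair of copies. atf4a measured 95.4, 95.5 and 100.1 CPM in WT and 158, 133 and 159.7 CPM in mutants, with no overlap (log2 fold change 0.63 ± 0.13, edgeR adjusted p = 0.0189). atf4b measured 674, 748 and 806 CPM in WT and 539.7, 697 and 653 CPM in mutants, with 1 mutant library above the lowest WT library (-0.24 ± 0.15, edgeR adjusted p = 0.345). xbp1, whose spliced mRNA encodes an activator of chaperone and degradation genes, measured 536, 698 and 706 CPM in WT and 571, 643 and 574 CPM in mutants (-0.12 ± 0.16, edgeR adjusted p = 0.661). All 3 mutant libraries of xbp1 lay inside the WT range, and counts per gene do not separate its spliced from its unspliced form. ddit3, which encodes the stress factor CHOP, measured 171, 189.7 and 198 CPM in WT and 181, 222 and 244 CPM in mutants (0.21 ± 0.15, edgeR adjusted p = 0.408). Its highest levels were in mutant replicates 2 and 3, and mutant replicate 1 lay inside the WT range. The call of atf4a was lost without WT replicate 2 (edgeR adjusted p = 0.0641), WT replicate 3 (0.0528) or mutant replicate 1 (0.0658). In a RefSeq table of the GRCz12tu assembly, atf4b and ern1 are the 2 of the 34 genes on the chromosome of clcn7, and atf4b lies within 10 Mb of it.

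The feedback regulators varied widely between libraries and were not called. ppp1r15a, which encodes the GADD34 subunit that restores translation by dephosphorylating eIF2, measured 285, 217 and 361 CPM in WT and 191, 272 and 281 CPM in mutants (log2 fold change -0.21 ± 0.23, edgeR adjusted p = 0.581). trib3, which encodes a pseudokinase induced by ATF4 and CHOP, measured 209, 191 and 308 CPM in WT and 163, 295 and 201 CPM in mutants (-0.10 ± 0.27, edgeR adjusted p = 0.839). Both genes were highest in WT replicate 3 and lowest in mutant replicate 1.

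Of the 3 HSP70 and HSP90 chaperone genes of the ER lumen 2 rose. hspa5 encodes BiP, the HSP70 of the ER, which also holds the sensors inactive. It measured 172, 201 and 188 CPM in WT and 296, 327 and 302 CPM in mutants, a 1.65-fold difference (log2 fold change 0.72 ± 0.13, edgeR adjusted p = 0.0109). The lowest mutant library stood well above the highest WT library, and the call held without each library in turn. hsp90b1, which encodes the HSP90 of the ER (GRP94), measured 96.7, 96.0 and 97.8 CPM in WT and 230.4, 171 and 128 CPM in mutants (0.86 ± 0.21, edgeR adjusted p = 0.034). Its WT libraries were nearly equal and its mutant libraries spread widely, with replicate 1 highest. The call of hsp90b1 was lost without WT replicate 1 (edgeR adjusted p = 0.0717), 2 (0.0985) or 3 (0.0957) and without mutant replicate 1 (0.0788) or 2 (0.0661). hyou1, which encodes a large HSP70 relative that releases nucleotide from BiP, measured 26.7, 36.5 and 25.9 CPM in WT and 42.2, 38.9 and 42.5 CPM in mutants. Its libraries did not overlap, but the log2 fold change of 0.47 ± 0.17 was not called (edgeR adjusted p = 0.103), and it passed without WT replicate 2 (0.0484) and with library size alone (0.0423). Summed, the 3 genes stood at 296 to 333 CPM in WT and 472 to 568 CPM in mutants.

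Of the 7 co-chaperones and secreted ER factors, sdf2l1 rose and 6 were not called. sdf2l1, which works with BiP and its J-domain partner, measured 9.00, 9.22 and 9.46 CPM in WT and 20.3, 16.4 and 17.9 CPM in mutants, a 1.97-fold difference (log2 fold change 0.98 ± 0.16, edgeR adjusted p = 0.00838). The groups stood apart and the call held without each library in turn. dnajb11, which encodes that J-domain partner (ERdj3), measured 16.8, 22.8 and 18.0 CPM in WT and 37.2, 30.5 and 24.7 CPM in mutants. It just missed the threshold (0.68 ± 0.20, edgeR adjusted p = 0.0592), and it passed with DESeq2 (adjusted p = 0.0174), limma-voom (0.0371), library size alone (0.0235) and without mutant replicate 3 (0.0457). The other J-domain genes had fold changes of both signs. dnajb9a and dnajb9b, copies of the gene for ERdj4, had log2 fold changes of -0.53 ± 0.34 and 0.88 ± 0.43 at no more than 6.89 CPM in any library, and dnajc3a, which encodes the PERK inhibitor p58IPK, had -0.06 ± 0.18 (edgeR adjusted p = 0.338, 0.218 and 0.857). The stress-induced ER factor gene creld2 (0.27 ± 0.25) and manf (0.29 ± 0.20), whose product binds BiP and can be secreted, overlapped between genotypes (edgeR adjusted p = 0.517 and 0.383).

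Of the 4 genes listed under lectin chaperones, a class that holds glycoproteins by their sugars, 3 rose, and in all 4 the mutant libraries lay above the WT libraries. calr3b, a calreticulin gene, measured 77.4, 72.3 and 52.2 CPM in WT and 192, 165 and 172 CPM in mutants, a 2.62-fold difference (log2 fold change 1.39 ± 0.18, edgeR adjusted p = 0.00317). Its 3 mutant libraries stood far above its WT libraries, and the call held in each of the 15 alternatives run. calr measured 41.7, 45.7 and 47.9 CPM in WT and 79.3, 70.4 and 57.3 CPM in mutants (0.61 ± 0.16, edgeR adjusted p = 0.0402). canx, which encodes the membrane-bound calnexin, measured 181, 180.5 and 195 CPM in WT and 285, 244 and 248 CPM in mutants (0.48 ± 0.13, edgeR adjusted p = 0.0461). Both lay just inside the threshold. The call of canx was lost when any 1 library was left out (edgeR adjusted p from 0.0658 to 0.141). That of calr was lost without WT replicate 1 (0.0834), 2 (0.103) or 3 (0.0845) and without mutant replicate 1 (0.12) or 2 (0.0838). With upper-quartile factors neither was called (0.0575 for calr and 0.0829 for canx). calr3a measured 86.4, 92.5 and 71.9 CPM in WT and 117, 98.3 and 114 CPM in mutants (0.39 ± 0.15, edgeR adjusted p = 0.123), and passed with library size alone (0.0453).

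**Figure D2:**
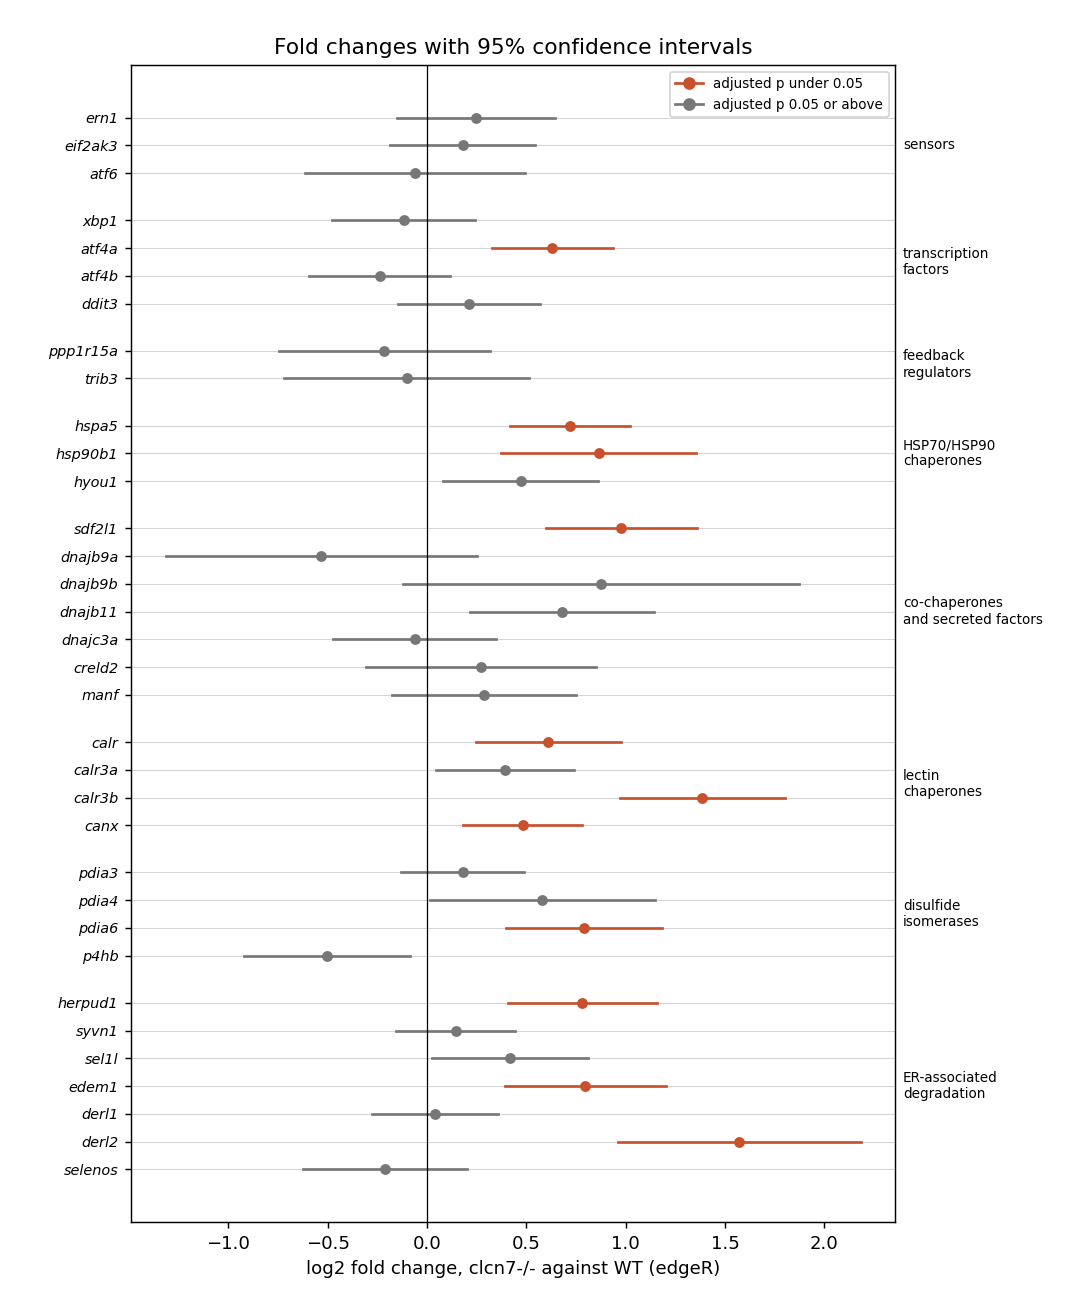
edgeR log2 fold change of each of the 34 genes, clcn7-/- against WT (x axis), with 95% confidence intervals, ordered by role (y axis); orange marks genes at an adjusted p under 0.05 and grey the others. Orange genes lie between 0.48 (canx) and 1.57 (derl2), and p4hb is the grey gene whose whole interval lies below 0.

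The 4 disulfide isomerases, which form and reshuffle disulfide bonds, differed among themselves. pdia6 measured 54.2, 59.8 and 52.8 CPM in WT and 119, 86.9 and 83.2 CPM in mutants and rose 1.73-fold (log2 fold change 0.79 ± 0.17, edgeR adjusted p = 0.0212). The groups of pdia6 stood apart, and the call was lost without WT replicate 2 (0.0509), WT replicate 3 (0.07) or mutant replicate 1 (0.0533). pdia4 measured 49.6, 59.7 and 52.5 CPM in WT and 105, 85.2 and 52.4 CPM in mutants (0.58 ± 0.24, edgeR adjusted p = 0.155). Mutant replicate 3 stood at the WT level, and without it pdia4 passed (0.0251). pdia3, the partner of calreticulin and calnexin, measured 320.0, 341 and 318 CPM in WT and 398, 330.0 and 382 CPM in mutants, with overlap (0.18 ± 0.13, edgeR adjusted p = 0.414). p4hb encodes protein disulfide isomerase, which is also the beta subunit of the collagen prolyl 4-hydroxylase. It measured 125, 133 and 123 CPM in WT and 106, 95.8 and 68.0 CPM in mutants. All 3 mutant libraries of p4hb lay below WT, and its log2 fold change of -0.50 ± 0.18 was not called (edgeR adjusted p = 0.104) except with upper-quartile factors (0.044).

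Of the 7 genes for ER-associated degradation, which extracts misfolded proteins for the proteasome, 3 rose. derl2 encodes a derlin of the membrane channel for export. It had the largest fold change of the 34 genes, from 47.2, 36.9 and 30.4 CPM in WT to 109, 80.0 and 151 CPM in mutants (2.97-fold, log2 fold change 1.57 ± 0.26, edgeR adjusted p = 0.00842). Its libraries did not overlap although they spread within both genotypes, and the call held in each of the 15 alternatives run. edem1, which encodes a lectin that picks out glycoproteins for degradation, measured 69.2, 51.8 and 54.8 CPM in WT and 115, 85.4 and 105 CPM in mutants (0.80 ± 0.17, edgeR adjusted p = 0.0227). herpud1, whose product assembles the ubiquitin ligase complex, measured 50.1, 38.9 and 46.1 CPM in WT and 71.3, 70.9 and 90.1 CPM in mutants (0.78 ± 0.16, edgeR adjusted p = 0.0185). Neither gene overlapped between genotypes. The call of edem1 was lost without WT replicate 2 (0.0757), WT replicate 3 (0.0789), mutant replicate 1 (0.0741) or mutant replicate 3 (0.0554), and that of herpud1 without WT replicate 2 (0.0667) or 3 (0.0622). The ligase and its adaptor, syvn1 (0.15 ± 0.13) and sel1l (0.42 ± 0.17), lay above WT in every mutant library and were not called (edgeR adjusted p = 0.502 and 0.145). derl1 (0.04 ± 0.14) and selenos (-0.21 ± 0.18), which encodes a recruiter of the p97 ATPase, overlapped between genotypes (edgeR adjusted p = 0.879 and 0.476). A further derlin gene outside the 34, derl3, measured 13.8, 21.4 and 18.5 CPM in WT and 12.3, 10.9 and 10.4 CPM in mutants. All its mutant libraries lay below WT, and it was not called (-0.67 ± 0.20, edgeR adjusted p = 0.0654).

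**Figure D3:**
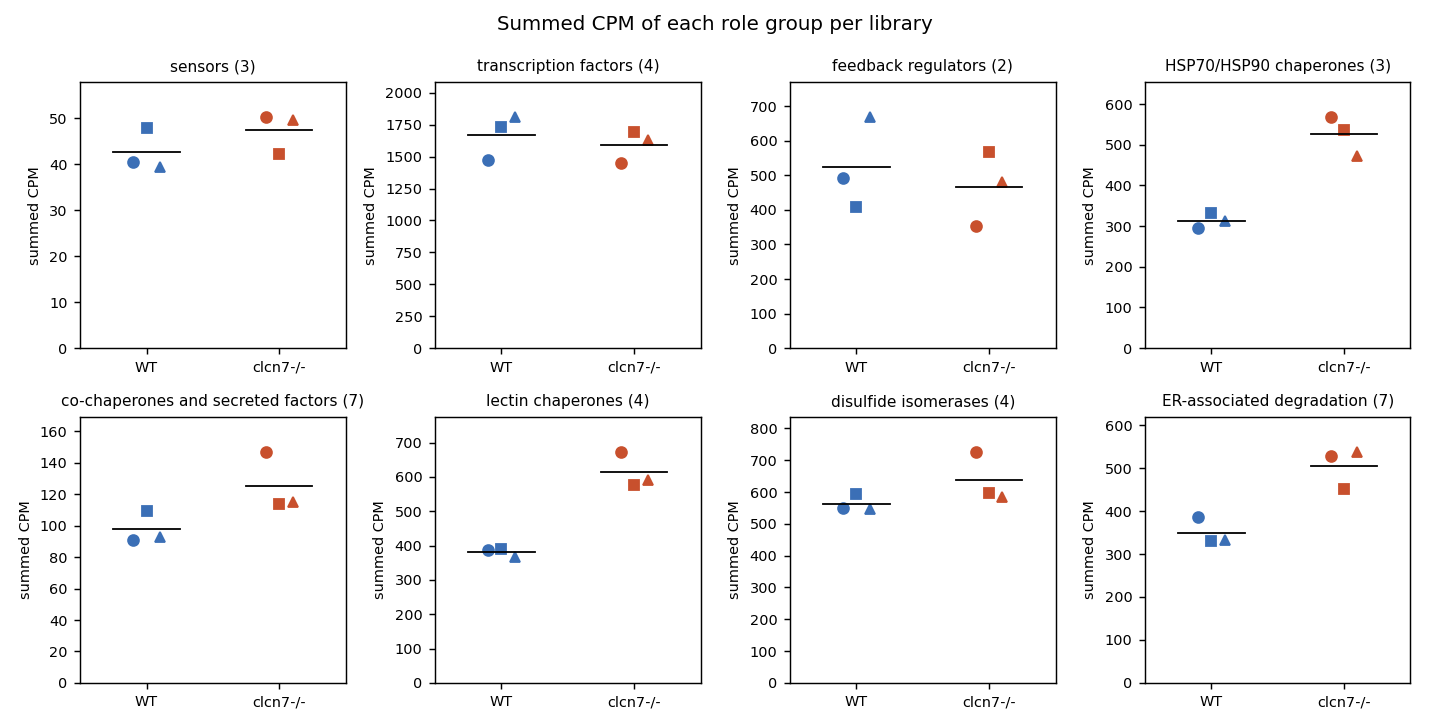
Summed CPM of the genes of each role group in each library (y axis, from 0), by genotype (x axis), with 1 shape per replicate number, the number of genes in brackets and a line at the mean of 3 libraries. The lectin chaperones stand at 367 to 391 CPM in WT and 577 to 673 CPM in mutants, while the transcription factors overlap, at 1477 to 1810 and 1450 to 1696 CPM.

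By summed level, the genotypes separated in 4 of the 8 role groups. These were the HSP70/HSP90 chaperones, the co-chaperones (91.2 to 109 CPM in WT and 114 to 147 CPM in mutants), the lectin chaperones, and the degradation genes (329 to 387 CPM in WT and 452 to 538 CPM in mutants). The sensors, transcription factors, feedback regulators and disulfide isomerases overlapped. In the 4 separated groups the mutants were higher. Of single tested genes, 19.5% had all mutant libraries above all WT libraries and 17.6% had them below. No such share was taken for sums over other groups of genes. All 34 genes together summed to 3720, 3943 and 4170 CPM in WT and 4498, 4582 and 4463 CPM in mutants. Sums weigh abundant transcripts most and are descriptions. Within the list, mutant replicate 1 held the highest level of 16 of the 34 genes, and WT replicates 1 and 3 held the lowest of 12 and 10. The same count was not made over all tested genes.

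For 3 duplicated genes the balance between the copies was compared. The ratio of atf4b to atf4a was 7.07, 7.84 and 8.05 in WT and 3.42, 5.23 and 4.09 in mutants. The ratio of calr3b to calr3a was 0.897, 0.782 and 0.727 in WT and 1.64, 1.67 and 1.51 in mutants. In both pairs the mutant ratios and the WT ratios did not overlap. The ratio of dnajb9a to dnajb9b was 4.49, 2.22 and 3.34 in WT and 1.02, 1.89 and 0.75 in mutants, again without overlap but on few counts (456 for dnajb9b over all libraries). For each of the 3 pairs a two-sided exact permutation test of the log2 ratio gave p = 0.1, and 0.1 after Benjamini-Hochberg adjustment over the 3 pairs, which is the smallest p that 3 against 3 libraries allow. A ratio compares the same pair between libraries and not the levels of the copies, since transcript lengths differ. Reads shared by close copies can affect it, and how they were counted was not examined.

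**Figure D4:**
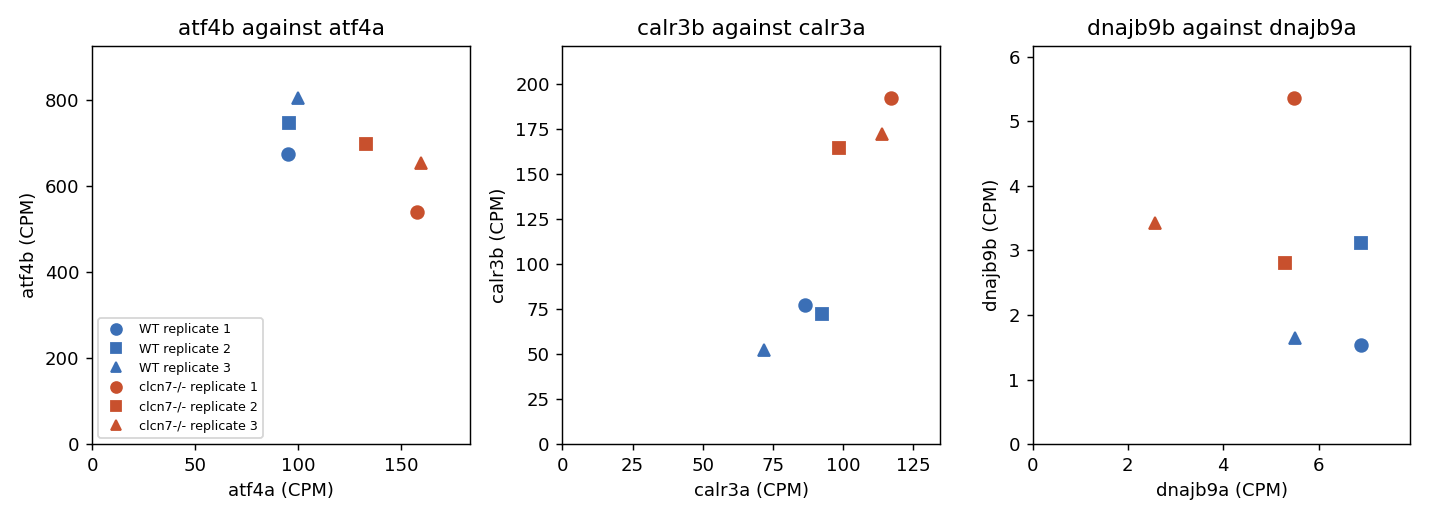
CPM of the second copy (y axis) against the first (x axis) of 3 duplicated genes in each library, with blue marks for WT and orange for clcn7-/- and 1 shape per replicate number; both axes start at 0. For calr3b the mutant libraries lie at 165 to 192 CPM and the WT libraries at 52.2 to 77.4 CPM, and for atf4a the mutant libraries lie to the right of WT, while for atf4b mutant replicates 1 and 3 lie below every WT library and mutant replicate 2 lies within the WT range.

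The genes around this machinery were called in both directions. For comparison, edgeR called 9.91% of all tested genes higher and 4.83% lower. Among 25 tested further folding factors edgeR called 4 higher and 2 lower, the median being -0.03 on the log2 scale, and DESeq2 called 6 and 5. Without 1 library, 0 or 1 were called lower. The glucosidase subunit gene prkcsh (0.68 ± 0.12, edgeR adjusted p = 0.00998) and the prolyl isomerase gene fkbp2 (0.91 ± 0.16, 0.0109) rose. At edgeR's main setting fkbp7 (-0.88 ± 0.17, 0.0138), which encodes another prolyl isomerase, and cnpy4 (-0.70 ± 0.19, 0.0485) fell. Of 22 tested further degradation genes edgeR called 1 higher, the mannosidase gene man1b1b (0.61 ± 0.12, 0.0159), and 0 lower. At an unadjusted p under 0.05, 2 of the 22 lay above and 2 below 0, and DESeq2 and limma-voom each called 1 higher and 1 lower. edgeR called 0 of the 33 tested genes of the translocon, signal peptidase and oligosaccharyltransferase. At an unadjusted p under 0.05, 6 lay above and 2 below 0, and DESeq2 called 3 higher and limma-voom 1. Of these 33, stt3a and rpn2, had log2 fold changes of -0.09 ± 0.12 and 0.07 ± 0.15 (edgeR adjusted p = 0.664 and 0.801). edgeR also called 0 of 17 tested further disulfide enzymes, with 5 above and 2 below 0 at an unadjusted p under 0.05. Their median was 0.27 on the log2 scale, with 11 of the 17 above 0 and 6 below. DESeq2 called 4 higher and 1 lower, and limma-voom 2 higher. The enzymes with the highest mean CPM were qsox1 at -0.65 ± 0.22 and txndc5 at -0.46 ± 0.15 (edgeR adjusted p = 0.0906 and 0.0877). qsox1 was called lower by DESeq2 (adjusted p = 0.0370), with upper-quartile factors (0.0429) and without mutant replicate 1 (0.0366), and txndc5 with upper-quartile factors (0.0417). In the COPII and cargo receptor list of 23, mia2 rose (1.08 ± 0.15, 0.00474) and sar1ab fell (-1.14 ± 0.30, 0.0405). Of the same gene family, sar1aa (-0.31 ± 0.24, edgeR adjusted p = 0.425) and sar1b (-0.09 ± 0.15, 0.738) were not called. In WT sar1b averaged 102 CPM and sar1ab 6.02 CPM. The calls of prkcsh, fkbp2 and mia2 held without each library in turn. Those of cnpy4 (0.0712 to 0.154) and sar1ab (0.0693 to 0.132) were lost whichever library was left out. That of fkbp7 was lost without WT replicate 2 (0.059) or 3 (0.0511), and that of man1b1b without these (0.0584 and 0.0563) or without mutant replicate 1 (0.0528).

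The enzymes that fold procollagen, a major load on the ER of bone-forming cells, had a negative log2 fold change in 16 of 16 tested genes. Of them 3 fell and 0 rose by edgeR, and the median was -0.47. DESeq2 called 5 lower, upper-quartile factors gave 5, and 0 lay above 0 at an unadjusted p under 0.05. Over all tested genes, 46.5% had a log2 fold change above 0 and edgeR called 4.83% lower. The prolyl 4-hydroxylase genes p4ha1b (-1.75 ± 0.35, edgeR adjusted p = 0.0161) and p4ha2 (-0.89 ± 0.18, 0.0168) fell, as catalytic partners of the p4hb product. p4ha1b was lost without WT replicate 3 (0.0506), mutant replicate 1 (0.0539) or mutant replicate 3 (0.055), and p4ha2 without WT replicate 1 (0.0513) or 3 (0.0797). The number called lower in this list was 0 without WT replicate 3 and 1 without WT replicate 1, mutant replicate 1 or mutant replicate 3. Osteoblast markers were also lower in mutants: 6 of 16 fell by edgeR, the median being -0.84 on the log2 scale, with 9 lower by DESeq2. The edgeR count was 2 without WT replicate 2 or mutant replicate 3 and 3 without mutant replicate 2. By library the summed levels of the 2 lists did not run in parallel. WT replicate 3 had the lowest osteoblast sum in WT (59718 CPM) and the highest procollagen enzyme sum (985 CPM). The part of osteoblast content in the lower procollagen enzymes was not tested, nor was that of the macrophage and neutrophil markers (9 of 10 and 8 of 8 tested rose) or of the erythroid markers (9 of 10 rose) in the higher chaperone genes. Of the keratinocyte markers 7 of 10 were called lower. Leaving out WT replicate 3 reduced that count to 1, leaving out mutant replicate 1 to 3, and leaving out either WT replicate 1 or mutant replicate 3 to 4. Of the fibroblast markers 3 of 12 were called lower by edgeR and 5 by each of DESeq2 and limma-voom, and 0 without WT replicate 2, WT replicate 3, mutant replicate 2 or mutant replicate 3. Of the endothelial markers 5 of 8 were called higher, with summed levels of 116 to 157 CPM in WT and 366 to 1038 CPM in mutants. Of the tested muscle markers 2 of 5 were called higher (0 without WT replicate 2 or 3), and of the T cell markers 1 of 5 (0 without WT replicate 3, mutant replicate 1 or mutant replicate 3). The part of these cells in the results was not tested. Of the tested B and plasma cell markers 1 of 4 was called higher, and 0 whichever library was left out. The 6 found summed to at most 2.17 CPM in WT and 7.92 CPM in mutants.

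Among 40 tested genes of the integrated stress response, the programme that PERK shares with other eIF2 kinases, 3 rose and 3 fell, the median being -0.13 on the log2 scale. At an unadjusted p under 0.05, edgeR gave 5 above and 11 below 0. All mutant libraries lay above WT in 7 and below WT in 12 of the 40, beside 19.5% and 17.6% of all tested genes. DESeq2 called 5 higher and 6 lower, and limma-voom 3 and 5. For comparison, edgeR called 9.91% of all tested genes higher and 4.83% lower. slc3a2a, a copy of the gene for the shared heavy chain of amino acid transporters, went from 32.5, 20.9 and 17.1 CPM to 136, 91.2 and 198 CPM (2.59 ± 0.34, edgeR adjusted p = 0.00354). The other copy, slc3a2b, averaged 309 CPM in WT and 265 CPM in mutants and was not called (-0.23 ± 0.22, edgeR adjusted p = 0.546). Like slc3a2a, the asparagine synthetase gene asns rose (1.09 ± 0.20, 0.0123), while stc2b (-1.71 ± 0.25, 0.00517) and the serine synthesis gene phgdh (-1.04 ± 0.20, 0.0152) fell. The calls of slc3a2a and stc2b held without each library in turn. That of asns was lost without WT replicate 3 (0.056), and that of phgdh without WT replicate 2 (0.063), WT replicate 3 (0.0785) or mutant replicate 1 (0.0508). Calls also fell among 12 tested further regulators of the unfolded protein response. Of these, the gene for the cell death protein BIM, bcl2l11, rose (0.80 ± 0.21, 0.0442), and the ER-bound transcription factor genes creb3l1 (-0.83 ± 0.18, 0.0241) and creb3l2 (-0.60 ± 0.15, 0.0319) fell. These 3 calls were kept in 0, 1 and 1 of the 6 fits that left out 1 library, the exceptions being WT replicate 3 for creb3l1 and mutant replicate 2 for creb3l2.

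Stress chaperones of other compartments showed no common direction. Of 19 tested cytosolic heat shock genes 1 rose and 2 fell, the median being -0.05 on the log2 scale. Among all tested genes edgeR called 9.91% higher and 4.83% lower. hspa8, the constitutive cytosolic HSP70 gene, rose 1.42-fold (0.50 ± 0.14, edgeR adjusted p = 0.046), and its call was lost whichever library was left out (0.0677 to 0.128). The co-chaperone gene bag3 (-1.46 ± 0.29, 0.0166) and the heat shock factor gene hsf2 (-0.98 ± 0.20, 0.0188) fell, the first losing its call without WT replicate 3 (0.0699) and the second without WT replicate 1 (0.0659), 2 (0.0759) or 3 (0.0751) or mutant replicate 1 (0.0682). edgeR called 0 of 8 tested mitochondrial chaperone genes, with 1 above 0 at an unadjusted p under 0.05 and 1 called by DESeq2, hspa9 being at -0.19 ± 0.14 and hspe1 at -0.03 ± 0.18 (edgeR adjusted p = 0.426 and 0.935).

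**Figure D5:**
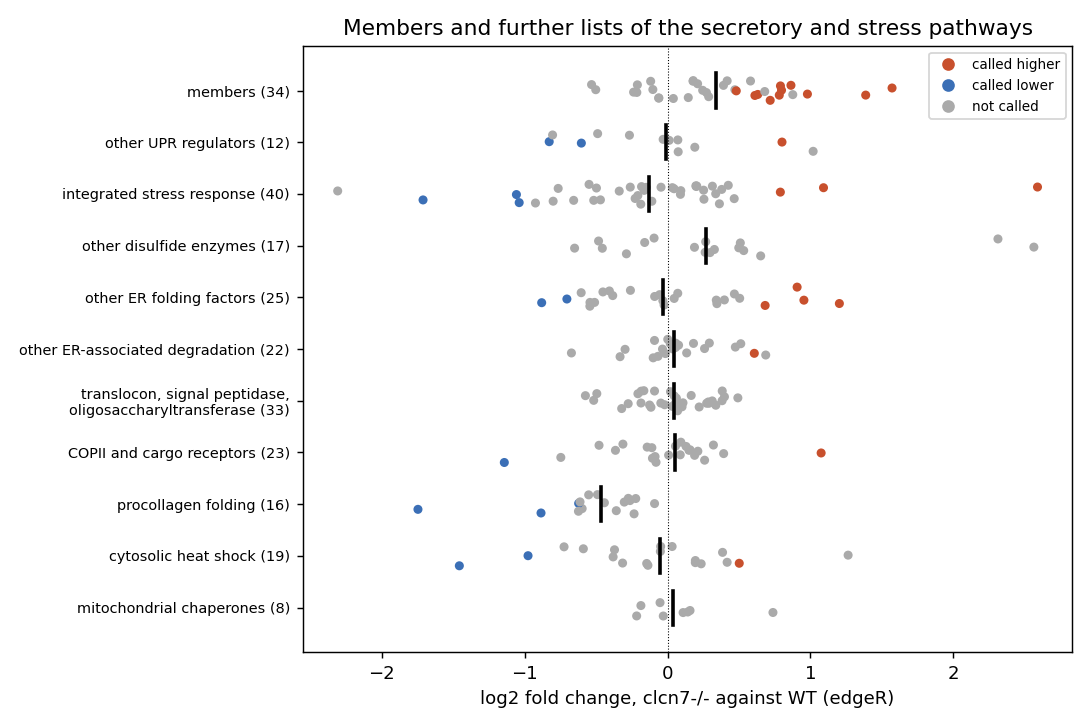
edgeR log2 fold changes (x axis) of the tested genes of the 34-gene list and of 10 further lists (y axis, number of genes in brackets), with a bar at each median; orange genes were called higher, blue lower and grey neither. The 34 genes have a median of 0.34, procollagen folding -0.47, and the integrated stress response -0.13 with calls on both sides.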

How the data were processed

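Each library had a file of whole counts for every gene, used as the authors deposited it. GRCz11 is the genome build in the submitters' processing notes, which also list HTSeq 0.9.1, STAR 2.7.0a, DESeq2 and Trim Galore. Annotation and strand setting: not given in the sources used here. In each file 5 rows that name no gene held 20.1% to 23.0% of counts and were left out. The authors also deposited a comparison table of log2 values and adjusted p-values, per the file headers, of which only its fold changes and p-values were used.

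Counts were filtered (filterByExpr, minimum count 10, minimum total 15), scaled by TMM and tested with edgeR 4.0.16 in R 4.3.3 (glmQLFTest, genotype as the only term, Benjamini-Hochberg adjustment over 20438 genes, threshold 0.05). Samples were grouped by the genotype in their titles. Each library pools 2 fish, so p-values measure the spread between pools. The SE is the log2 fold change divided by the square root of F. The common biological coefficient of variation was 35.3%. The steps were tested on simulated data. CPM use counts over all gene rows times the TMM factor. DESeq2 1.42.0, limma-voom (limma 3.58.1) with sample weights and other settings were alternatives.

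The members and lists were chosen with earlier results of these data known. Genes named are all members, ctsk, the targeted gene, and from each further list up to 2 called genes per direction with the smallest p, or, in a list without calls, the 2 of highest mean CPM. mogs, uggt1, ganab, uggt2, slc3a2b, sar1aa, sar1b and derl3 were named after their values were seen. No sequences are printed.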

Additional observations from a re-analysis of the deposited data

How the results depend on the processing

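All 11 called genes of the 34 kept a positive log2 fold change in each of the 15 alternatives. The number called higher was 2 with glmTreat against a fold of 1.5 (calr3b and derl2) and 4 to 11 when 1 library was left out: 8, 5 and 4 without WT replicates 1, 2 and 3, and 5, 8 and 11 without mutant replicates 1, 2 and 3. Fits without a library hold fewer samples. hspa5, sdf2l1, calr3b and derl2 kept their calls in all 6 of them. The number called lower was 1 with upper-quartile factors (p4hb) and 0 in the other alternatives. Over all tested genes, 3012 were called, with 4579 by DESeq2, 1191 with glmTreat and 1356 to 2527 without 1 library. Median changes on the log2 scale were 0.10 over all tested genes and 0.49 over the 34 genes with library size alone, and with upper-quartile factors -0.16 and 0.23. Calls divided differently by scaling: 2025 higher and 987 lower with TMM, 2626 and 564 with library size alone and 1787 and 1675 with upper-quartile factors.

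Signs turned only in genes that were not called, and the cause was not tested. With library size alone the log2 fold changes were 0.097 for atf6, 0.038 for xbp1, 0.057 for trib3, 0.088 for dnajc3a, 0.063 for stt3a and 0.13 for hspe1. With upper-quartile factors they were -0.067 for derl1 and -0.038 for rpn2. Without 1 library the values ran from -0.17 to 0.20 for atf6, -0.35 to 0.021 for ppp1r15a, -0.37 to 0.18 for trib3, -0.15 to 0.074 for dnajc3a, -0.15 to 0.099 for hspe1, -0.021 to 0.13 for derl1 and -0.028 to 0.19 for rpn2.

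The labels do not say whether shared replicate numbers mark pairs of libraries, and this was not tested. Deviations from the genotype mean correlated at 0.26, 0.06 and 0.16 between same-numbered libraries over 20438 genes. Between differently numbered libraries the correlations ran from -0.22 to 0.03, so every library correlated best with its own number. With the replicate number as a block, 3007 genes were called, and of the 34 genes 9 were higher and 0 lower, calr and canx losing their calls (edgeR adjusted p = 0.0654 and 0.0819). In that blocked fit ctsk was called higher (0.0454) and qsox1 lower (0.0433), and 4 osteoclast markers were called higher and 9 osteoblast markers and 1 fibroblast marker lower.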

Other observations

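The calnexin and calreticulin cycle, in which glucosidases trim the sugars of a new glycoprotein and a glucosyltransferase marks those still unfolded, was looked at after the values were seen. Of 5 glucosidase and glucosyltransferase genes in the list of further folding factors, prkcsh, mogs and uggt1 were called higher and ganab and uggt2 were not called. mogs, which encodes the first glucosidase, measured 8.57, 7.13 and 8.81 CPM in WT and 22.9, 19.6 and 14.0 CPM in mutants (log2 fold change 1.203 ± 0.225, edgeR adjusted p = 0.0124), and its call held without each library in turn. uggt1, which encodes the glucosyltransferase that senses folding, measured 19.1, 14.5 and 14.2 CPM in WT and 33.3, 24.1 and 35.1 CPM in mutants (0.95 ± 0.20, edgeR adjusted p = 0.0202). The groups of both genes stood apart. ganab, which encodes the catalytic subunit of the second glucosidase, had a log2 fold change of 0.34 ± 0.25 and uggt2, which encodes the second glucosyltransferase, one of 0.047 ± 0.17, both with overlapping groups (edgeR adjusted p = 0.417 and 0.892). The call of uggt1 was lost without WT replicate 2 (0.0691), WT replicate 3 (0.0773), mutant replicate 1 (0.0656) or mutant replicate 3 (0.0591).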
